A study of Mus musculus with 3 samples.

Results

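Vomeronasal receptors are the 2 families of G protein-coupled receptors with which sensory neurons of the vomeronasal organ detect pheromones and cues from other animals. The V1R receptors (genes named Vmn1r) are class A receptors encoded by a single coding exon and signal through Gαi2. The V2R receptors (genes named Vmn2r) are class C receptors that signal through Gαo, and their several coding exons give a large extracellular ligand-binding domain, with the membrane-spanning part in the last coding exon. Both families lie in dense clusters of near-identical genes and pseudogenes that arose by duplication, so short reads from 1 gene can resemble those of its neighbors.

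The members are the positions in genes whose names start with Vmn1r or Vmn2r, with a single-base reference and a single-base alternate allele, in the deposited table of exonic substitutions. There were 549 such sites in 13 genes, of 11544 single-base positions in 2192 genes in all. At 4 further positions in Vmn genes another or a second allele was listed, and these are not members. Vmn1r genes held 29 sites in 5 genes and Vmn2r genes 520 sites in 8 genes. RefSeq annotates 231 Vmn1r and 124 Vmn2r genes as protein coding in GRCm38.p6, so the sites fell in a small number of the genes of either family. All 13 gene names were found in RefSeq.

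Whole-genome DNA of 3 androgenetic haploid ESC lines was sequenced, with 1 library per line. The lines were O48 (WT, passage 40), ΔDSM-O48-1 (Dmpk, Six5 and Mbnl1 knockout, passage 60) and ΔDSMD-O48-2 (the same 3 genes and Dmwd knocked out, passage 70), each grown in 2i/Lif medium and labelled as strain C57BL/6. All 3 lines, the WT control included, lack the H19 and IG DMRs. The edited lines were made with CRISPR-Cas9 and picked as single-cell clones, ΔDSM-O48-1 comes from cells already lacking Dmpk, ΔDSMD-O48-2 comes from ΔDSM-O48-1, and passage rises along the same order, so genotype, clone and passage cannot be told apart. The series was made to look for off-target changes of CRISPR-Cas9, and none of the targeted genes is a Vmn gene. The table gives substitutions only and does not show the knockouts themselves, nor can genomic DNA show the cell type.

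The lines had a median depth of 32 reads (O48), 33 reads (ΔDSM-O48-1) and 32 reads (ΔDSMD-O48-2) over all 11544 positions. The reads at Vmn sites summed to 33377, 33816 and 34216 in the same order. A site was called mixed in a line with a heterozygous genotype and fixed with a homozygous alternate genotype. Mixed therefore means that reads with 2 different bases were placed at 1 position. With 1 library per line there was no replicate spread, so each test below compares libraries or lists of sites. Neighboring sites share reads and are not independent, and intervals and limits cover counting error only.

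Some stretches of reference sequence show the places on which the results turn, each read 5′ to 3′ in the coding direction from GRCm38.p6, with the bases listed in the table for that gene in capitals. The first set is a 100-base stretch of the last coding exon of 3 neighboring Vmn2r genes of chromosome 17, at chr17:23291355-23291454 (minus strand) for Vmn2r114, chr17:23359608-23359707 (plus strand) for Vmn2r115 and chr17:23460096-23460195 (minus strand) for Vmn2r117. It is shown because the first capitals, C of tac and C of tca, are stop-gain sites in all 3 genes.
Vmn2r114: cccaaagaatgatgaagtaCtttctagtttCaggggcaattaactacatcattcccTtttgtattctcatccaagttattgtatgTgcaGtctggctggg
Vmn2r115: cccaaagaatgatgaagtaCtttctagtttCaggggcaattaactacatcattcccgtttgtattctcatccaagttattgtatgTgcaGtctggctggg
Vmn2r117: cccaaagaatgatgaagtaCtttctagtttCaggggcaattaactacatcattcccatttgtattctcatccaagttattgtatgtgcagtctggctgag

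The second set is the end of the first coding exon of Vmn2r89 at chr14:51452160-51452247 (plus strand), with 13 listed sites in 88 bases. It is shown because 3 of its codons hold 2 listed bases each, among them the capitals CA of the codon tca.
Vmn2r89: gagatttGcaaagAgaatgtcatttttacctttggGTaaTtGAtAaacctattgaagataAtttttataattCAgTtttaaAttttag

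The third set is an 80-base stretch of Vmn1r2 at chr4:3172896-3172975 (plus strand) and of Vmn1r3 at chr4:3184413-3184492 (minus strand). It is shown because the same 2 changes, S275F and S295C, were listed in both genes.
Vmn1r2: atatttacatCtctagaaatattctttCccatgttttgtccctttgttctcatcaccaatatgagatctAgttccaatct
Vmn1r3: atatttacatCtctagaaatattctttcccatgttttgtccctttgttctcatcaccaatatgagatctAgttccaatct

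By genotype, most Vmn sites were mixed in every line and hardly any were fixed. Of 531 sites with a genotype and at least 10 reads in every line, 366 (68.9%, 95% exact Clopper-Pearson interval 64.8% to 72.8%) were mixed in all 3 lines, against 32% of all positions of the table. With classes set by read share instead (mixed from 0.2 to 0.8), 44.3% of Vmn sites were mixed in all lines. Fixed in all 3 lines was 1 Vmn site, against 37.8% of all positions. A further 163 sites were mixed in some lines with the reference genotype in others, where the share over all positions was 29%, and 1 site was fixed in some lines. The other 18 sites, all in Vmn2r114, lacked a genotype in 1 line. Olfactory receptor genes, the other large chemoreceptor family, showed the opposite split, with 43 of 484 measured sites mixed and 420 fixed in all 3 lines. This contrast was not tested, since sites of 1 gene share their reads, and it does not separate gene family from genome region.

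Both families had nearly the same share of mixed sites. It was 68.97% in Vmn1r genes (20 of 29, 49.2% to 84.7%) and 68.92% in Vmn2r genes (346 of 502, 64.7% to 73.0%). Among sites that were either mixed or fixed in all lines, 20 of 21 Vmn1r sites and 346 of 346 Vmn2r sites were mixed (Fisher's exact test, p = 0.0572, adjusted p = 0.229 over 4 tests). That difference rests on a single fixed site, so the test says little about the families.

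**Figure D1:**
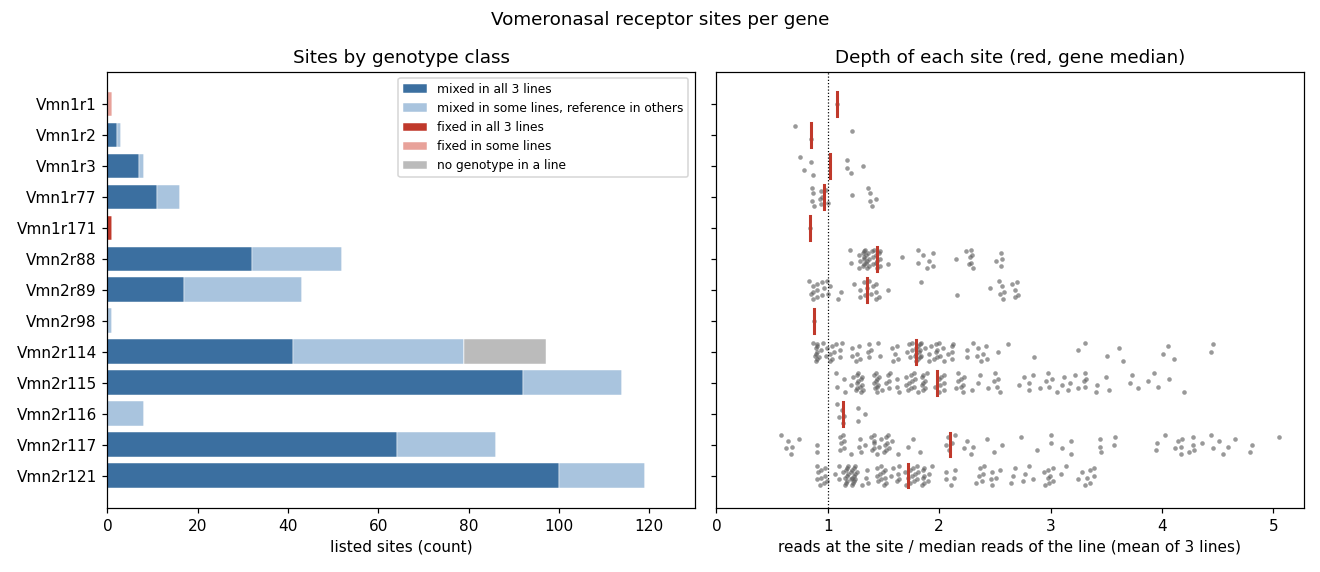
Left, number of listed sites per gene, colored by genotype class over the 3 lines. Right, depth of each site divided by the median depth of its line (mean of 3 lines), with a dotted line at 1 and the gene median in red. The Vmn2r genes with many sites have medians from 1.35 to 2.10, and the Vmn1r genes lie between 0.836 and 1.08.

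Sites were uneven between genes. Vmn2r121 on chromosome X held most, with 119 sites, of which 100 were mixed in all lines. On chromosome 17, Vmn2r115 held 114 (92 mixed in all), Vmn2r114 97 (41 mixed in all and 18 without a genotype in a line) and Vmn2r117 86 (64 mixed in all). On chromosome 14, Vmn2r88, whose product is known as a receptor for hemoglobin, held 52 (32 mixed in all), and Vmn2r89 held 43 (17 mixed in all).

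Few sites lay in the other Vmn2r genes. Vmn2r116, which encodes the receptor for the male pheromone ESP1, lies between Vmn2r115 and Vmn2r117 and held 8 sites, none of them mixed in all lines. Its alternate shares never exceeded 12%, and 5 of the sites, A239 to I248M, had 4 alternate reads each in ΔDSM-O48-1 and 0 in the other lines. Vmn2r98 held 1 site.

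Sites also stood close together. Another listed site of the same gene lay within 10 bases of 403 of 549 Vmn sites (73.4%), compared with 45.1% of all positions and 24.5% of olfactory receptor sites. In Vmn1r genes this held for 8 of 29 sites (27.6%), and in Vmn2r genes for 395 of 520 (76.0%).

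The alternate share of reads at mixed sites ranged widely, with a similar middle in each line. Over the sites with a mixed genotype in O48 it ran from 5.88% to 82.9% with a median of 30.6%, in ΔDSM-O48-1 from 6.38% to 82.4% with a median of 29.6%, and in ΔDSMD-O48-2 from 7.14% to 80.3% with a median of 31.7%. At the 366 sites mixed in all lines, the SD of the share over the 3 lines had a median of 4.86 percentage points. The widest range over the lines was 48.6 points, at V65D of Vmn2r89, with 3 of 32 alternate reads in O48, 23 of 60 in ΔDSM-O48-1 and 29 of 50 in ΔDSMD-O48-2.

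Depth was high where Vmn2r sites were mixed. The depth ratio, the reads at a site divided by the line's median, had a median of 1.99 at the 366 Vmn sites mixed in all lines, with quartiles of 1.47 and 2.75, and 182 of them (49.7%) reached 2 or more. The 346 Vmn2r sites had a median of 2.06 and reached 5.05, while the 20 Vmn1r sites had a median of 1.18 and none reached 2. The 163 sites mixed in some lines were at 1.24. Over all positions, the median was 2.08 at sites mixed in all lines and 0.968 at fixed sites, so Vmn2r mixed sites were about as deep as mixed sites in general. Olfactory receptor sites mixed in all lines had a median ratio of 1.05. The only Vmn site fixed in all lines had 0.836, so no depth of fixed Vmn sites can be compared.

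Depth also differed between exons of a gene. In Vmn2r114, 6 of the 17 sites of coding exon 2 were counted in all 3 lines. Over these 6 the median ratios were 4.63, 3.83 and 3.81 in O48, ΔDSM-O48-1 and ΔDSMD-O48-2, with median alternate shares of 71.8%, 76.8% and 65.4%. Its exon 1 had ratios of 0.906, 1 and 0.844, with shares of 17.2%, 0% and 10.7%. In Vmn2r117 the first exon was the deep one, with ratios of 3.50, 3.36 and 3.59 and shares of 64.5%, 70.3% and 64.1%. Not every deep exon had a high share. Exon 4 of Vmn2r89 had ratios of 2.73, 2.32 and 2.77 with shares of 35.1%, 35% and 32.6%, and exon 3 of Vmn2r115 had ratios of 2.58, 3.09 and 2.77 with shares of 54.3%, 38.7% and 49.2%.

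The density of sites followed the exons as well. Over the 6 Vmn2r genes with many sites, coding exon 1 held 94 sites in 1206 bases (77.9 per kb) and exon 3, the longest exon of the ligand-binding part, 100 in 4848 bases (20.6 per kb). Exon 1 of Vmn2r88 was densest, with 121 sites per kb, followed by exon 1 of Vmn2r117 with 107 per kb. Other exons of the same genes held no site at all: exon 1 of Vmn2r115, exon 5 of Vmn2r114, exons 4 and 5 of Vmn2r121, exon 6 of Vmn2r88 and exons 2 and 5 of Vmn2r89. In the 3 neighbors of chromosome 17 the exons rich in sites differed from gene to gene. Exon 1 held 15 sites in Vmn2r114, 0 in Vmn2r115 and 21 in Vmn2r117, whereas exon 6 held 48, 52 and 6.

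**Figure D2:**
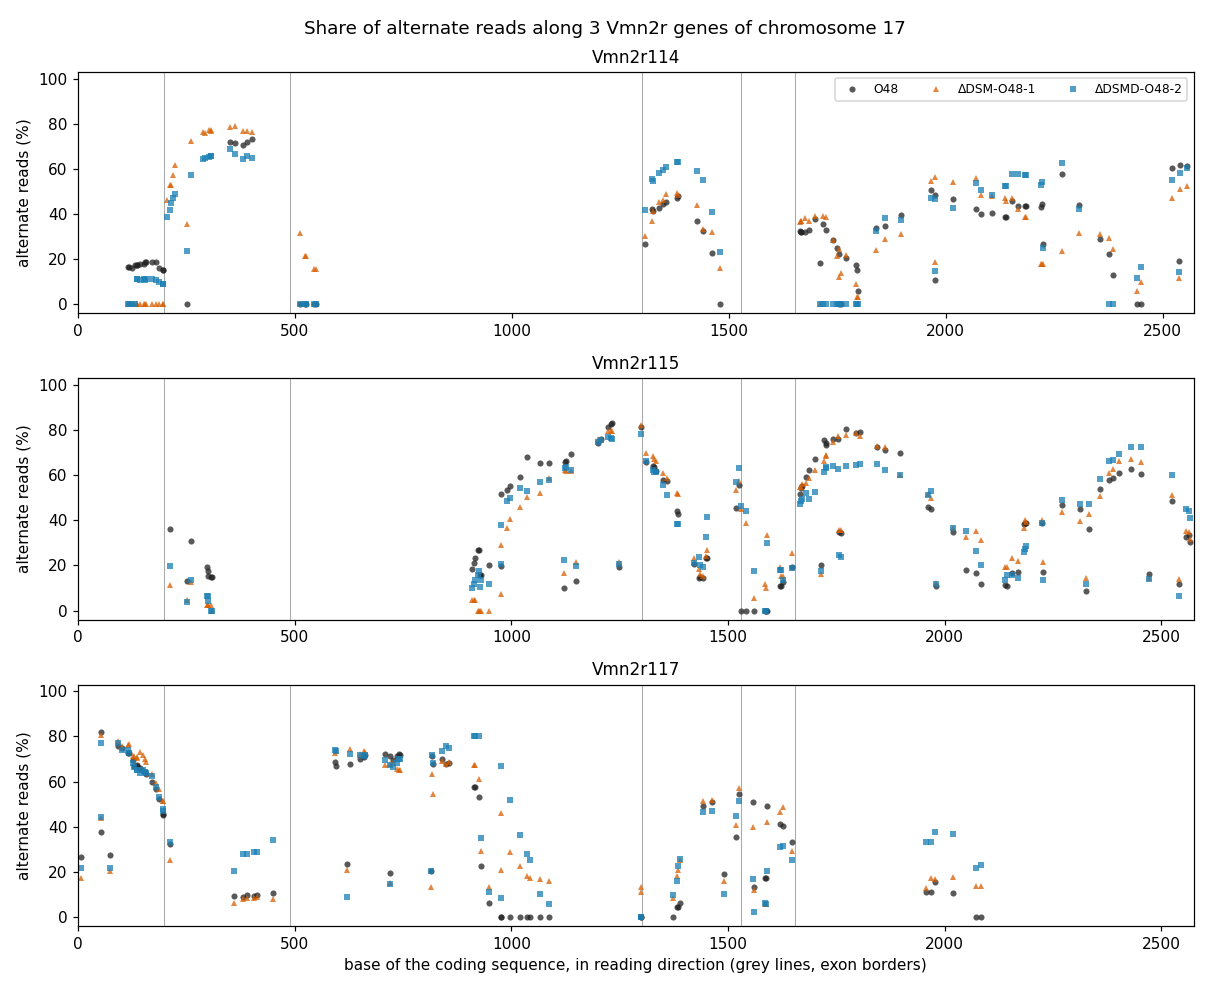
Share of alternate reads at each coding site (vertical, percent) by its base in the coding sequence (horizontal) for Vmn2r114, Vmn2r115 and Vmn2r117, with 1 symbol per line and exon borders in grey. Exon 1 of Vmn2r117 has median shares of 64.1% to 70.3% in the 3 lines, and exon 1 of Vmn2r115 is empty.

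The coding sequences of the 3 chromosome 17 genes are nearly identical in the reference, and many of their sites fell on the same aligned base. Vmn2r114 is 96.0% identical to Vmn2r115 and 96.7% to Vmn2r117, and Vmn2r115 and Vmn2r117 share 95.6% of bases. The sites of the 3 genes cover 200 aligned places. At 88 of these the same alternate base was listed in 2 or 3 of the genes, in 2 genes at 80 places and in all 3 at 8. At 85 of the 88 places none of the 3 genes has that base in the reference. Only a gene without the listed change could have it, so at the 8 places in all 3 genes none could. A copy elsewhere in the reference (defined below) held the shared base at 18 places and none did at 70. Over all sites of Vmn2r114, the alternate base was the reference base of an aligned neighbor at 28 of 97. In Vmn2r115 this held at 30 of 114 sites and in Vmn2r117 at 16 of 86.

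The shared sites did not have equal shares in the genes. At T656A of Vmn2r114 and T657A of Vmn2r115 and Vmn2r117, the alternate share in O48 was 50.6%, 45% and 10.8%, and in ΔDSM-O48-1 it was 54.7%, 50% and 17%. In ΔDSMD-O48-2 the same place gave 46.9%, 53.0% and 33.3%.

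Fewer places were shared in the other groups. Vmn2r88 and Vmn2r89 are 94.8% identical and had the same alternate base at 8 of 79 places. With Vmn2r121 added to the alignment, at least 2 of the genes had the same alternate base at 20 of 145 places. Vmn1r2 and Vmn1r3 are 99% identical and shared both S275F and S295C of 9 places, the capitals common to both printed sequences. S275F was seen in 7 of 25 reads of Vmn1r2 in O48, 3 of 22 in ΔDSM-O48-1 and 5 of 21 in ΔDSMD-O48-2, and in 7 of 31, 9 of 23 and 9 of 22 reads of Vmn1r3. All 6 values lie between 13.6% and 40.9%, and neither gene was fixed in any line.

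**Figure D3:**
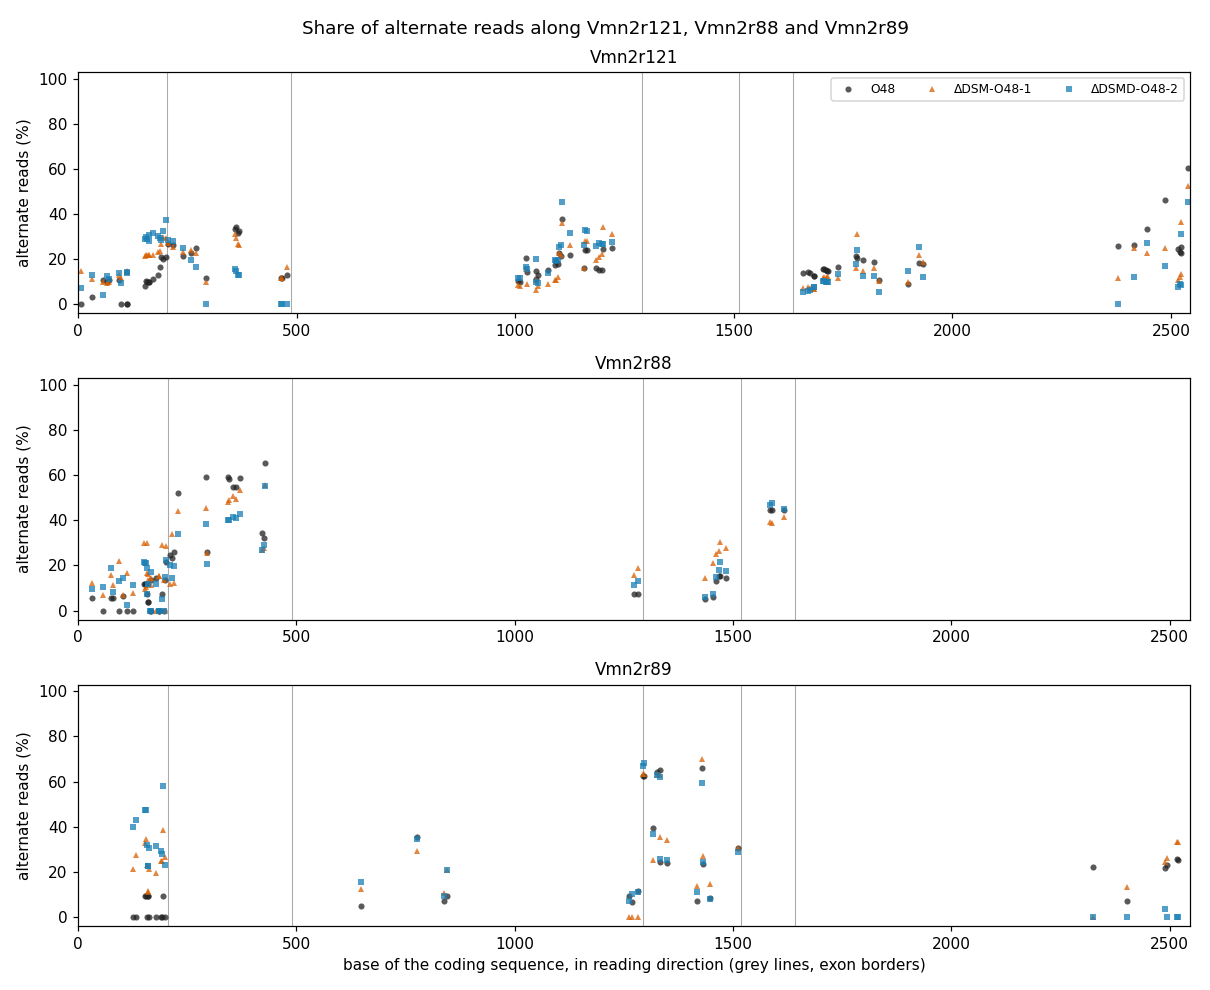
Share of alternate reads at each coding site (vertical, percent) by its base in the coding sequence (horizontal) for Vmn2r121, Vmn2r88 and Vmn2r89, with 1 symbol per line and exon borders in grey. Most shares are below 50%, and exons 4 and 5 of Vmn2r121 and exon 6 of Vmn2r88 hold no site. Over all sites of Vmn2r121, its UTR sites not drawn here included, the median is 21.1% to 25% in the 3 lines.

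Copies of the surrounding sequence were common for Vmn sites. The sequence of 50 bases on either side of a site had another match of at least 90% identity in the primary assembly for 527 of 549 sites (96.0%, 94.0% to 97.5%), with a median of 6 copies and a best identity of 98% in the median. Such a copy was found for 97.6% of olfactory receptor coding sites mixed in all lines and for 59.1% of those fixed in all lines. Of coding sites of other genes, 76.5% of the mixed and 16.1% of the fixed ones had such a copy. Outside Vmn genes, only coding sites with at most 50 repeat-masked bases in their window were searched. All Vmn sites were searched, UTR sites included, so the sets are not alike. At least 1 copy held the alternate base at the site for 290 Vmn sites (52.8%, 48.6% to 57.1%). Among Vmn sites mixed in all lines this was 198 of 366 (54.1%). That is near the 51.2% of olfactory receptor coding sites and the 43.7% of coding sites of other genes that were mixed in all lines. For coding sites fixed in all lines it was 33.9% in olfactory receptor genes and 9.66% in other genes. The 1 fixed Vmn site had none (Fisher's exact test against the mixed Vmn sites, p = 0.460, adjusted p = 0.614 over 4 tests). With a single fixed site that test has no power to show a difference.

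By their copies, the genes with more than 8 sites fell into 2 kinds. In Vmn1r77 the alternate base was found at a copy for 16 of 16 sites, in Vmn2r89 for 35 of 43 (81.4%), in Vmn2r121 for 93 of 119 (78.2%) and in Vmn2r88 for 40 of 52 (76.9%). In Vmn2r114, Vmn2r115 and Vmn2r117 it was found for 33 of 97 (34.0%), 40 of 114 (35.1%) and 27 of 86 (31.4%). The intervals of these 3 shares end at 44.6% or lower, and those of the first 4 genes start at 63.2% or higher. They treat sites as independent, which neighboring sites are not. On placed chromosomes alone the first 4 genes had 8 of 16, 19 of 43, 62 of 119 and 26 of 52, closer to the other kind. Genes with 8 sites or fewer were not sorted, among them Vmn1r3 and Vmn2r116 with 2 of 8 each.

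Sequence that is not placed on a chromosome made up much of the first kind. An unlocalized scaffold of chromosome 4 that holds Vmn2r122 aligned with 34 sites of Vmn2r88 and had the alternate base at 28 of them. It had the alternate base at 54 of 82 aligned sites of Vmn2r121 and at 21 of 34 of Vmn2r89. In all, a scaffold held the alternate base at 164 Vmn sites, and at 69 of these no placed chromosome did. No scaffold held an alternate base of Vmn2r114, Vmn2r115 or Vmn2r117. The deposited table lists no position on a scaffold.

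In Vmn1r77 on chromosome 7 the alternate share was 36.1% to 50% at the first 5 of its 16 sites and 0% to 23.1% at the last 5 over the 3 lines. The first listed change, E6G, had 24 of 60 alternate reads in O48, 18 of 43 in ΔDSM-O48-1 and 18 of 36 in ΔDSMD-O48-2. At the last 5, from C95G to S157Y, O48 had 4 to 7 alternate reads and ΔDSM-O48-1 had 4 to 6, while ΔDSMD-O48-2 had 0 of 23 to 30 reads. At the stop-gain K128* the 0 of 23 reads of ΔDSMD-O48-2 still allow a share of up to 13.0%, and the difference from O48 did not pass (Fisher's exact test, adjusted p = 0.285). The gene's median depth ratio was 0.965, and in O48 the first sites reached 1.97.

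**Figure D4:**
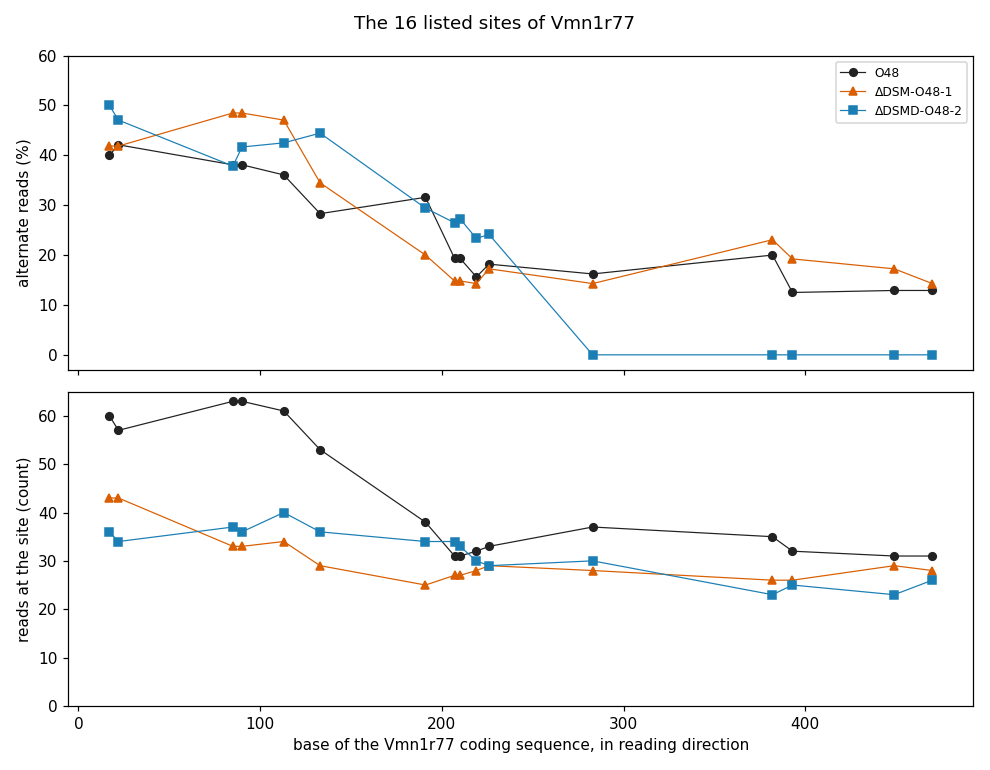
Alternate share of reads (top, percent) and reads (bottom, count) at the 16 sites of Vmn1r77 by base of the coding sequence, with 1 line per cell line. All 3 lines fall from shares of 40% to 50% at the first site, and ΔDSMD-O48-2 has 0 alternate reads at the last 5 sites.

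Most coding changes listed in Vmn genes were annotated, each base alone, as nonsynonymous. Of 502 coding sites, 331 (65.9%, 61.6% to 70.1%) were nonsynonymous, against 57.6% of coding positions in the whole table and 66.4% of those mixed in all lines. In Vmn1r genes 21 of 28 were nonsynonymous (75%, 55.1% to 89.3%) and in Vmn2r genes 310 of 474 (65.4%, 60.9% to 69.7%). This difference did not pass Fisher's exact test (p = 0.412, adjusted p = 0.614 over 4 tests), and the intervals overlap. Transitions made up 214 of the 366 sites mixed in all lines (58.5%), against 56.5% of such sites in the whole table, and the 1 fixed site is a transition as well (Fisher's exact test, p = 1, adjusted p = 1).

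Stop-gain changes numbered 24, or 4.78% of the coding sites (3.09% to 7.03%), against 1.99% over the whole table. Among coding sites mixed in all lines, stop-gains were 5.09% in Vmn genes (2.99% to 8.02%) and 2.61% over the whole table. This difference was not tested. Vmn2r115 and Vmn2r117 had 7 each, Vmn2r114 had 6, and Vmn2r121, Vmn2r88, Vmn2r89 and Vmn1r77 had 1 each. No stop-loss, start-loss or splice-site change was listed in a Vmn gene. Of the 24, 17 were mixed in all lines and 7 in some, and none was fixed in any line. A further 43 sites lay in 3′ UTRs and 4 in 5′ UTRs.

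Of the 20 stop-gain sites in the chromosome 17 genes, 16 fell on 7 aligned places where at least 2 of the genes had the same stop. Stops in all 3 genes fell on a pair of codons in the printed stretch of exon 6, within the membrane-spanning part. S694* of Vmn2r114 (G23291424C, the reference base, the chromosome position and the alternate base on the plus strand) had 28 of 70 alternate reads in O48, 30 of 62 in ΔDSM-O48-1 and 32 of 63 in ΔDSMD-O48-2. S695* of Vmn2r115 (C23359638G) had 5 of 42, 16 of 51 and 11 of 55 reads in the same order. S695* of Vmn2r117 (G23460165C) had 0 of 53, 5 of 37 and 8 of 35. The change thus made up 40.0% to 50.8% of reads at Vmn2r114 and 11.9% to 31.4% at Vmn2r115, and at Vmn2r117 it was seen in no read of O48. The tyrosine stop 4 codons before it, Y690* in Vmn2r114 and Y691* in the other two, went the same way with 42.2% to 56.1%, 16.7% to 35.3% and 0% to 21.6%.

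The other shared stops were found in pairs of genes. Q121* had 116 of 162, 104 of 132 and 92 of 138 alternate reads in Vmn2r114, at depths of 4 to 5.06 times the line's median. In Vmn2r117 the same Q121* had 4 of 43, 3 of 48 and 9 of 44 reads. R450* of Vmn2r114 and R451* of Vmn2r115 lay between 44.6% and 60.9% in all lines, and G507* of Vmn2r115 and Vmn2r117 between 35.4% and 57%. Q66* was at 45.1% to 51.2% in Vmn2r117 but at 5 of 33, 0 of 41 and 3 of 34 reads in Vmn2r114. The highest share of any stop-gain was that of Q411* in Vmn2r115, with 100 of 121, 98 of 123 and 105 of 137 reads.

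Not every listed stop would remain one if neighboring changes sit on the same read. The table annotates each base alone, and 53 codons in 6 Vmn genes held 2 listed bases, 106 sites in all. In 29 of these codons the amino acid with both bases changed differs from that with either base alone. The 2 alternate counts differed by at most 2 reads in every line in 33 of the 52 codons counted in all lines. The table does not say which bases lie on the same read.

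For stops this concerns 7 of the 24 sites. Q66* of Vmn2r114 and of Vmn2r117 stays a stop with both bases changed (TGA), while the other 5 do not. Q411* of Vmn2r115 would read TGG (tryptophan), with 100 and 102 alternate reads at its 2 bases in O48, 98 and 98 in ΔDSM-O48-1 and 105 and 105 in ΔDSMD-O48-2. S64* of Vmn2r89, the capitals CA in the printed stretch, would read TAT (tyrosine), with 14 and 14 alternate reads in ΔDSM-O48-1 and 15 and 14 in ΔDSMD-O48-2. C43* of Vmn2r117 and Y62* of Vmn2r88 would read TTA (leucine), and S569* of Vmn2r121 would read CAA (glutamine).

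Fixed changes were found in 2 Vmn1r genes and in no Vmn2r gene. In Vmn1r171, T23632129C in the 5′ UTR on chromosome 7 was carried by 29 of 29 reads in O48, 23 of 23 in ΔDSM-O48-1 and 29 of 29 in ΔDSMD-O48-2. In Vmn1r1 on chromosome 1, T182157705G (N132H) was carried by 0 of 37 reads in O48, 39 of 39 in ΔDSM-O48-1 and 29 of 29 in ΔDSMD-O48-2. O48 and ΔDSM-O48-1 differed there (Fisher's exact test, adjusted p = 1.45e-19 over 10711 positions), as did O48 and ΔDSMD-O48-2 (adjusted p = 1.41e-16). The 0 of 37 reads in O48 allow a share of up to 8.11%. Reference in O48 and fixed in both edited lines was the pattern of 1 of 531 measured Vmn sites (0.188%). Over all positions it was found at 22 of 10711 (0.205%), so the Vmn share is near that of the whole table. The window around the Vmn1r1 site had no copy of 90% identity elsewhere, the only Vmn1r site without one, and its depth ratio was 1.08. It is printed from chr1:182157675-182157735 (minus strand) to show this place, with the changed base of the asparagine codon aac in a capital.
Vmn1r1: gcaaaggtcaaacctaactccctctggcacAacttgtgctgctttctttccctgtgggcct

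The 163 sites mixed in some lines took 6 patterns of genotype. The alternate genotype was called in both edited lines and not in O48 at 49 sites, or 9.23% of measured sites against 4.62% of all positions. It was called in O48 and ΔDSM-O48-1 only at 37 sites (6.97% against 3.94%) and in O48 and ΔDSMD-O48-2 only at 27 (5.08% against 4.26%). ΔDSM-O48-1 alone had it at 30 sites (5.65% against 5.25%), O48 alone at 16 (3.01% against 5.28%) and ΔDSMD-O48-2 alone at 4 (0.753% against 5.64%). These differences from the whole table were not tested, since neighboring sites share reads. A reference genotype did not always mean that no alternate read was seen: at 18 of the 49 sites O48 held at least 1.

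Between lines, the read shares of few Vmn sites differed. For ΔDSM-O48-1 against O48, 19 of 531 sites passed (3.58%, Fisher's exact test per site, adjusted p under 0.05 over 10711 positions), against 4% of all positions, with 14 higher and 5 lower in ΔDSM-O48-1. For ΔDSMD-O48-2 against O48, 31 passed (5.84%, background 4.95%), 21 higher and 10 lower in ΔDSMD-O48-2. For ΔDSMD-O48-2 against ΔDSM-O48-1, 12 passed (2.26%, background 4.31%), 3 higher and 9 lower in ΔDSMD-O48-2. The first pair of shares is near the background and the last is below it, which was not tested. The first pair of comparisons uses the same O48 library. Without Vmn1r1, every called site was mixed in at least 1 line.

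Called sites stood in blocks. In exon 1 of Vmn2r89, 11 sites were called in at least 1 comparison, all lower in O48, where S64* had 0 of 31 alternate reads, against 14 of 57 in ΔDSM-O48-1 (adjusted p = 0.0443, Fisher's exact test) and 15 of 51 in ΔDSMD-O48-2 (adjusted p = 0.0180). In exon 5 of Vmn2r115, M511V had 0 of 76 alternate reads in O48, 23 of 51 in ΔDSM-O48-1 (Fisher's exact test, adjusted p = 3.65e-09) and 25 of 54 in ΔDSMD-O48-2 (adjusted p = 6.98e-10). In exon 2 of Vmn2r114, the synonymous site E84 had 0 of 109, 26 of 73 and 22 of 94. In exon 3 of Vmn2r117, H326Y had 0 of 27, 11 of 24 and 24 of 36. At S64*, M511V, E84 and H326Y the alternate base was seen in both edited lines and in no read of O48. In the Vmn2r89 block, V52I, V52E and V65D had 3 alternate reads each in O48.

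Other called sites went other ways. In exon 3 of Vmn2r115, G308S and M309L each had 12 of 45 alternate reads in O48 and 0 of 47 in ΔDSM-O48-1, with 7 of 45 and 8 of 46 in ΔDSMD-O48-2. N316 beside them had 10 of 50, 0 of 56 and 7 of 59. In exon 6 of Vmn2r114, L756Q was low in ΔDSM-O48-1, with 15 of 64 alternate reads against 44 of 76 in O48 and 49 of 78 in ΔDSMD-O48-2. G741D was likewise lowest there, with 9 of 51 against 29 of 65 and 33 of 61.

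Further sites of Vmn2r114 had no alternate read or no genotype in ΔDSMD-O48-2. In exon 6, R573H had 23 of 65 alternate reads in O48 and 22 of 56 in ΔDSM-O48-1, but 0 of 68 in ΔDSMD-O48-2 (Fisher's exact test, adjusted p = 5.71e-07 against O48 and 3.74e-07 against ΔDSM-O48-1). The count of 0 allows a share of up to 4.41%. The neighboring T575A had 21 of 64, 22 of 57 and 0 of 66, and the block ran on to S590F with 8 of 39, 8 of 37 and 0 of 42. Just beside it, 6 sites from C555F to T566 had 23 to 26 alternate reads in both other lines and no genotype in ΔDSMD-O48-2. L785 of the same exon, with 13 and 19 alternate reads in the other lines, had no genotype there either. Another 11 sites, in exon 2, had no genotype in O48 and 23 to 88 alternate reads in the others. At N93 of Vmn2r98, ΔDSM-O48-1 had 13 alternate and 16 reference reads, while 0 of 30 reads in O48 and 0 of 22 in ΔDSMD-O48-2 were alternate.

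**Figure D5:**
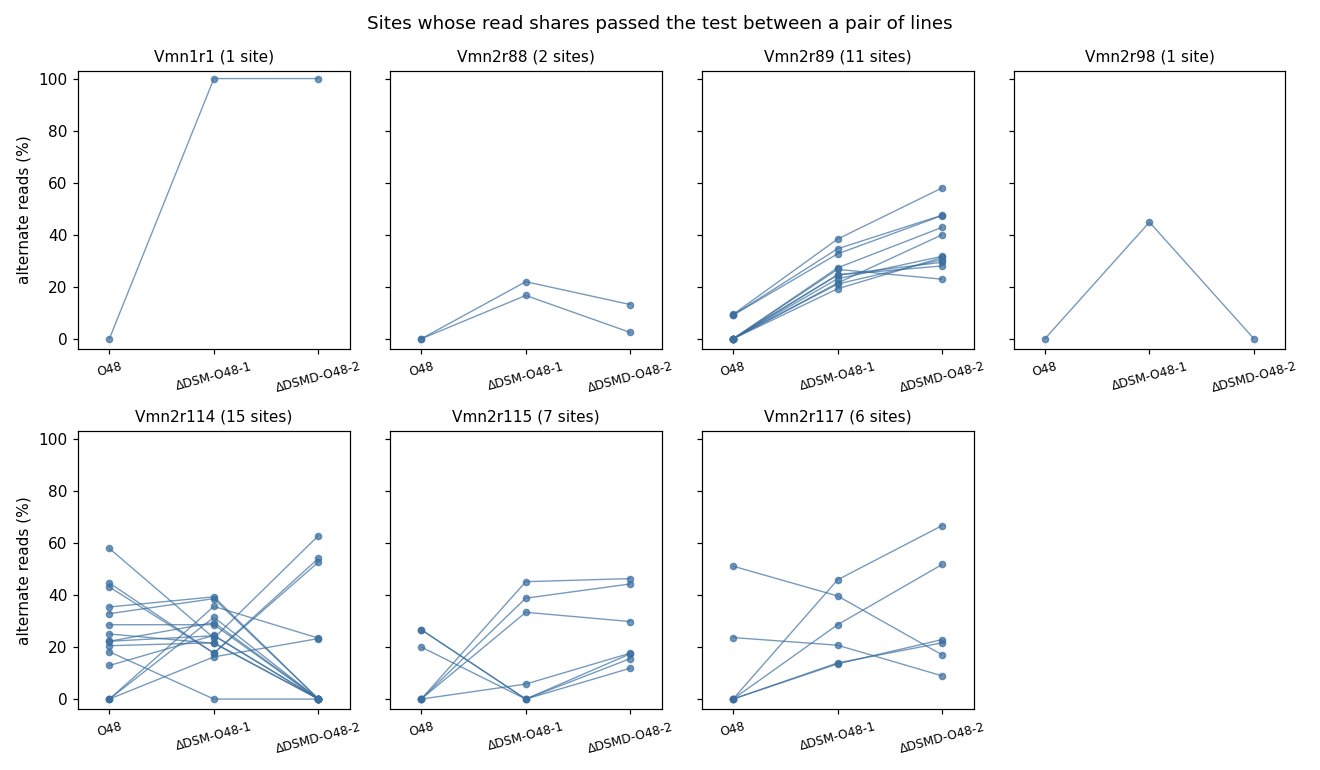
Share of alternate reads (vertical, percent) in the 3 lines at every Vmn site that passed the test between at least 1 pair of lines, 1 panel per gene and 1 line per site. The Vmn2r89 sites are at 0% to 9.38% in O48 and higher in both edited lines, and most Vmn2r114 sites are at 0% in ΔDSMD-O48-2 or O48.

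Genes that act with the receptors held few sites, but the share of all genes with a site was not computed. Among olfactory receptor genes, 129 of 1428 held a site. Of 11 genes of vomeronasal signal transduction, Gnao1, which encodes the Gαo of V2R neurons, was the only one with sites, 6 in all, of which 4 were mixed in all lines and none was a nonsynonymous or stop-gain change. Major urinary protein genes, which encode pheromone carriers and ligands of the receptors, had 6 sites in 4 of 46 genes, with 1 mixed in all lines. No site was listed in the formyl peptide receptors (10 genes), the H2-Mv genes (9), the Esp genes (18), the trace amine-associated receptors (16) or the taste receptors (43).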

How the data were processed

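Genomic DNA libraries of the 3 haploid ESC lines (1 per line) were analyzed. The authors deposited 1 table of exonic substitutions with columns for each line, and the labels name CASAVA 1.8.2, BWA 0.7.12, SAMtools, Picard, GATK and the build mm10 in the submitters' processing notes. Caller settings and filters are not given in the sources used here. The deposited counts are whole reads per site and line (all, reference and alternate), without normalization. The deposited quality scores (site and genotype) and the authors' allele fraction were not used for a result. The reference base equals that of GRCm38.p6 at 100% of 11544 positions.

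Entries were reduced to 1 per position and gene, keeping the effect of highest impact. Classes needed genotypes and at least 10 reads in all 3 lines. Reads per site were compared by two-sided Fisher's exact tests with Benjamini-Hochberg adjustment over 10711 positions (threshold 0.05), and site shares by the same test over 4 tests. A count of 0 was given the limit of 3 counts of the total. Windows of 50 bases on either side of a site were searched with blastn 2.17.0 (word size 16) in the primary assembly with its scaffolds, and other matches of at least 90% identity over 90% of the window that cover the site were copies. Outside Vmn genes, sites that were not coding or had more than 50 repeat-masked bases in the window were not searched. Coding sequences from RefSeq were aligned with mafft 7.526. Recomputed from the RefSeq transcripts, 489 of 500 coding changes equalled the deposited ones, and the rest were changes of Vmn2r88 numbered from another transcript. Statistics used scipy 1.17.1 with numpy 2.4.6, tables pandas 2.3.3, sequence pysam 0.24.0 and plots matplotlib 3.10.9, all under Python 3.11.15.

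On simulated reads of 10711 positions (ΔDSM-O48-1 against O48), the read test called 75 of 100 sites shifted by 50 points, fewer than first aimed for (51 of the 53 with at least 30 reads in both lines), 32 of 100 shifted by 20 points and 2 of 10511 without a shift. Genes were named by a rule that takes the 5 Vmn1r and 10 Vmn2r genes with most sites, which here covers all 13 (further parts of the rule, on stops, depth, fixed and called sites, add none). Single sites named in the text were picked after their values were seen. The members and gene lists were chosen with earlier results of these data known. Sequences are those of the RefSeq genome file of GRCm38.p6, and protein sequences were not used here. A stretch of 1 Vmn gene is not reported here. The alternatives were depth minimums, classes by read share, leaving out genes, 1 site per gene, other windows and identities, other read tests and, chosen after seeing the data, 4 more.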

Additional observations from a re-analysis of the deposited data

How the results depend on the processing

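Of 56 alternatives over 10 results, 52 planned and 4 chosen after seeing the data, 47 stayed on the same side of the threshold or within the spread allowed. No site-share test had passed, so none of those calls could reverse. Direction was not always kept: the Vmn1r minus Vmn2r share of mixed sites was -4.76 points, but 0.0412 points among all measured sites. Some alternatives could change nothing and are among the 47. No Vmn site was under the minimum depth, off the numbered chromosomes, X and Y, or in a gene with -ps in its name. The share of Vmn sites mixed in all lines fell to 44.3% with classes by read share (mixed from 0.2 to 0.8) and was 64.4% without Vmn1r77 and Vmn2r121, against 68.9%. The median depth ratio of these sites became 2.34 by read share, 2.15 without those 2 genes and 1.76 without Vmn2r114, Vmn2r115 and Vmn2r117, against 1.99. Called sites fell from 19 to 12 with the chi-square test for ΔDSM-O48-1 against O48. With read counts halved they fell to 4, 7 and 2 for ΔDSM-O48-1 against O48, ΔDSMD-O48-2 against O48 and ΔDSMD-O48-2 against ΔDSM-O48-1, and all of these were among the sites called before. Halving leaves fewer reads. The cause of the other changes was not tested. Adjusted p of the site-share tests ranged from 0.156 to 1 over their alternatives. With each codon read with all its listed bases changed, 19 of 24 stop-gain sites stayed stops. Depth limits single sites: at the median of 32 reads a count of 0 allows a share of up to 9.38%. No paired analysis was possible because each line has 1 library.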
